A study of Mus musculus with 61 samples.

Results

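Genes that mark dendritic cells and macrophages, 10 in all, were followed in the exocrine glands of NOD mice: Flt3, Itgax, Cd68, Lyz2, Csf1r, Adgre1, Mrc1, Cd163, Xcr1 and Siglech. They were taken from a whole-genome Affymetrix mouse array as the probe sets whose annotation names one of these genes and no other. This gave 12 probe sets for the 10 genes, of 45101 probe sets and 18194 genes on the array, with 3 probe sets for Csf1r and 1 for each other gene. Male NOD mice, a strain with inherited autoimmunity in which lymphocytes gather in the lacrimal glands, were left untreated or were injected weekly from week 8 of age with LTBR-Ig, a fusion of the lymphotoxin beta receptor with an IgG1 tail that captures the ligands of that receptor, or with the control mouse IgG1 antibody MOPC-21. Untreated mice were sampled at weeks 8, 12, 14 and 16 and treated mice at weeks 12 and 16, after 4 and 8 weeks of injections. Both lacrimal glands of a mouse were combined, and the salivary samples pooled the salivary glands of a mouse, submandibular and parotid among them, with the cervical lymph nodes cut away. The 16 groups of tissue, week and treatment held 61 arrays, 31 lacrimal and 30 salivary, with 4 arrays in 14 groups, 3 in the lacrimal untreated group of week 12 and 2 in the salivary LTBR-Ig group of week 12. Each array is a biological replicate within its tissue, so the p-values below measure the spread between these mice. The labels do not say whether lacrimal and salivary arrays came from the same mice. Tests between the tissues treat the arrays as independent.

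Dendritic cells take up antigen, mature, and present it to T cells, whereas macrophages and their monocyte precursors engulf debris, and tissue-resident macrophages live in most organs without disease. The markers divide along these lines. Flt3 encodes the receptor for the growth factor that drives dendritic cell development, Itgax the integrin CD11c, Xcr1 a chemokine receptor of cross-presenting dendritic cells and Siglech a lectin of plasmacytoid dendritic cells. Csf1r encodes the receptor that keeps macrophages alive, Adgre1 the surface protein F4/80 and Cd68 a lysosomal glycoprotein, while Lyz2 encodes lysozyme, made by monocytes, macrophages and neutrophils. Mrc1, the mannose receptor CD206, and Cd163, the receptor for haemoglobin bound to haptoglobin, are found mainly on tissue-resident macrophages. None of these genes belongs to a single cell type, and in whole glands fewer cells of a type and less RNA per cell cannot be told apart.

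The stretch around the transcription start is shown for the genes on which the results turn and for Mrc1, which was called in no lacrimal comparison, with any GAGGAA or its reverse complement TTCCTC in capitals. These letters form the core of many sites bound by PU.1, the transcription factor of the myeloid lineage. The sequences run from 250 bases before the start to 50 bases after it and come from RefSeq, build GRCm38.p6. The window of Itgax lies at chr7:128129300-128129599 on the plus strand, that of Cd68 at chr11:69666121-69666420 on the minus strand, that of Lyz2 at chr10:117282223-117282522 on the minus strand and that of Mrc1 at chr2:14229164-14229463 on the plus strand.
Itgax: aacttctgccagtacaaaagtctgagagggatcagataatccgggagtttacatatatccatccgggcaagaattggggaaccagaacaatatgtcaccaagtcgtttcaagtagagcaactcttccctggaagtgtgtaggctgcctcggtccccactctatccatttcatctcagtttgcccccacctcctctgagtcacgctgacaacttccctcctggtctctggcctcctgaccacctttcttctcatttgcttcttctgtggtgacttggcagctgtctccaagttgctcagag
Cd68: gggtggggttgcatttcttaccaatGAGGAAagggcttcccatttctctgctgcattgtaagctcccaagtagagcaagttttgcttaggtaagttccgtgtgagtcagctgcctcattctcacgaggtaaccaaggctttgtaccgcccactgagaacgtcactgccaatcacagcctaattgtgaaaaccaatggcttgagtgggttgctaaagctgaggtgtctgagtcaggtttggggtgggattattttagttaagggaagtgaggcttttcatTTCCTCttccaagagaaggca
Lyz2: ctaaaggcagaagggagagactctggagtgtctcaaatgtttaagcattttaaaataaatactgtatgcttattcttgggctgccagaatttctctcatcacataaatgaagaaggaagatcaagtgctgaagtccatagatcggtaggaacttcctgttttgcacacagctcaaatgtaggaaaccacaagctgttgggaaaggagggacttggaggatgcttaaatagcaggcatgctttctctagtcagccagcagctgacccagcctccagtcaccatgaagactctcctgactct
Mrc1: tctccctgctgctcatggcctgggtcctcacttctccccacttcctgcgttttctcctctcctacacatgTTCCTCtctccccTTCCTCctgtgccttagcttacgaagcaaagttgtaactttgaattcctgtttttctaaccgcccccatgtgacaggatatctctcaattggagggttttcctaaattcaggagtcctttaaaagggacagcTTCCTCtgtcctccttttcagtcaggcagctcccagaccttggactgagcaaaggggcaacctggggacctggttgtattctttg
The letters were found 2 times in the Cd68 window, once on each strand, and 3 times in the Mrc1 window, each time as TTCCTC, and not in those of Itgax and Lyz2. Of the 8 markers whose window was examined, 3 held the letters on either strand (Cd68, Mrc1 and Siglech), and 28.3% of all 32851 promoter windows of the same length did. A match describes the letters of the window and does not show a bound site.

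All levels are log2 values after GCRMA, a scale on which a step of 1 is a doubling, and a value at or under 4 was counted as not above the floor. Changes given as bounds against the floor compare group means with values under it raised to it. Such bounds do not allow for the spread between mice. Between 37.3 and 41.4% of the probe sets of an array lay above the floor. Lcn11, a lipocalin of the lacrimal gland, ranged from 14.89 to 15.76 in the lacrimal arrays. It stayed at or under 3.54 in the salivary arrays except for replicate 1 of the untreated week 8 group, at 13.34. Amy1, the salivary amylase, lay above 8 in 8 lacrimal arrays, reaching 15.08 and 12.22 in replicates 3 and 4 of the LTBR-Ig group of week 16 and 14.39 and 15.31 in replicates 1 and 2 of the untreated group of week 16. The other lacrimal arrays, among them all 4 of the MOPC-21 group of week 16, held at most 7.83. In the salivary arrays Amy1 ranged from 4.58 to 14.88 with a median of 7.51. A value under 8 therefore does not show that the transcript was absent. The marker tests that rest on the arrays with high Amy1, or on the salivary array with high Lcn11, are given with and without them. Other values are over all arrays unless stated. The part of either transcript's source in the results was not tested.

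In lacrimal glands the markers fell into 3 kinds by level. Lyz2, Csf1r and Mrc1 were above the floor in all 31 lacrimal arrays, Cd68 in 30, Adgre1 and Cd163 in 28, and Itgax in 24. Flt3 was above it in 10 of 31, and these 10 were all untreated or MOPC-21 arrays of week 12 or later. Siglech passed the floor in 1 lacrimal array, replicate 2 of the LTBR-Ig group at week 12, at 4.45. Xcr1 was at or under 2.85 in all 61 arrays. In salivary glands Flt3 (2.52 to 2.90), Itgax (2.38 to 2.99), Xcr1 and Siglech were under the floor in all 30 arrays, and the other 6 markers were above it in 28 to 30. A filter that asked for 2 arrays of at least one group above the floor therefore left 8 markers to test in lacrimal glands and 6 in salivary glands. Xcr1 and Siglech could not be tested, and their values do not show that the cells they mark were absent.

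In the lacrimal glands of untreated mice 6 markers rose between week 8 and week 16. Mrc1 and Cd163 did not pass the test. At week 8 Lyz2 stood at 7.36, 7.81, 7.22 and 8.07 in the 4 mice and at week 16 at 11.36, 11.52, 11.72 and 12.10. Cd68 stood at 4.11, 4.0, 3.44 and 4.19 at week 8 and at 7.24, 7.37, 7.73 and 8.55 at week 16. The lowest week 16 array of either gene lay above the highest week 8 array by more than the whole spread within a group. The change was 4.06 ± 0.37 (SE) for Lyz2, a 16.7-fold rise with an adjusted p of 2.2e-09, with an adjusted p of 5.0e-08 for Cd68. The week 8 mean of Cd68, 3.94, was under the floor, and with its 1 array under the floor raised to it the gene was at least 12.5-fold higher at week 16.

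Itgax was under the floor in all 4 mice at week 8 (2.39, 2.55, 2.51 and 2.56) and at 5.41, 5.34, 5.81 and 6.58 at week 16. Its CD11c transcript was thus at least 3.45-fold higher at week 16 when the week 8 level is set at the floor, with an adjusted p of 7.8e-06. Flt3 was also under the floor at week 8 (2.49, 2.86, 2.90 and 2.89) and reached 4.20, 4.81, 3.67 and 5.04 at week 16, close above it in 3 of 4 mice. The rise of Flt3 was at least 1.35-fold, a bound under a doubling. Its adjusted p of 5.0e-05 rests in part on values under the floor. Csf1r rose by 2.41 ± 0.29, from 7.17, 7.50, 6.80 and 7.50 at week 8 to 9.44, 9.58, 9.52 and 10.08 at week 16, with an adjusted p of 2.1e-07. Its other probe sets rose less, by 1.82 and 1.03, both called. Adgre1 went from 3.88, 3.96, 3.92 and 5.0, above the floor in 1 of 4 arrays, to 6.19, 6.51, 6.55 and 7.33. With the arrays under the floor raised to it this is a rise of at least 5.25-fold, with an adjusted p of 3.3e-06. For each of these 6 markers the week 8 and week 16 groups did not overlap, where 23.8% of all probe sets tested were higher without overlap.

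The resident macrophage markers gave other values. Mrc1 averaged 6.26 ± 0.42 (SD, n = 4) at week 8 and 6.54 ± 0.30 at week 16, a difference of 0.28 with an interval from −0.33 to 0.89. Cd163 averaged 4.85 ± 0.23 and 5.15 ± 0.34, a difference of 0.30 with an interval from −0.40 to 0.99. Both pairs of groups overlapped, and the upper ends of both intervals lie under a doubling. Thus 6 of the 8 markers tested were called higher, where 12.1% of all probe sets tested were called higher, and the median change was 2.43 against −0.07 over all probe sets. Flt3 and Itgax, under the floor in all week 8 arrays, passed the filter only through later groups. The filter therefore favoured their part in this count and in that of groups without overlap. A call here and below means a change of at least 2-fold and an adjusted p under 0.05 by limma, adjusted over all probe sets tested.

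The same 6 markers were called higher at week 12 against week 8 (6.07% of probe sets called higher) and at week 14 against week 8 (9.89%). At week 12 Lyz2 was up by 2.92 and Csf1r by 1.61 on the log2 scale, and Cd68 was at least 4.65-fold, Adgre1 at least 2.85-fold and Itgax at least 1.36-fold higher with the week 8 arrays under the floor raised to it. At week 14 the changes were 3.66 for Lyz2 and 1.96 for Csf1r, and the bounds 8.70-fold for Cd68, 4.0-fold for Adgre1 and 2.66-fold for Itgax. These comparisons share the week 8 arrays, and in both Flt3 and Itgax passed the filter only through groups later than week 8.

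Some of these calls were not held by every array or probe set. Of the other probe sets of Csf1r, 1 was called at both ages (1.14 and 1.33) and 1 at neither (0.63 and 0.61, adjusted p = 0.131 and 0.0978). At week 12 the calls of Itgax (adjusted p = 0.12) and Flt3 (adjusted p = 0.175) were lost without untreated week 12 replicate 4, and that of Flt3 without week 8 replicate 1. The week 14 call of Flt3 was lost without week 14 replicate 3 or 4 or week 8 replicate 1. The mice of week 12 differed among themselves: Lyz2 was 9.99 and 9.94 in replicates 2 and 3 and 11.69 in replicate 4, and Itgax was 4.33, 3.0 and 6.02 in the same order. Flt3 averaged under the floor at weeks 12 and 14 (3.79 and 3.85), so no fold is given for it there. Its calls at these ages rest on values mostly under the floor.

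**Figure D1:**
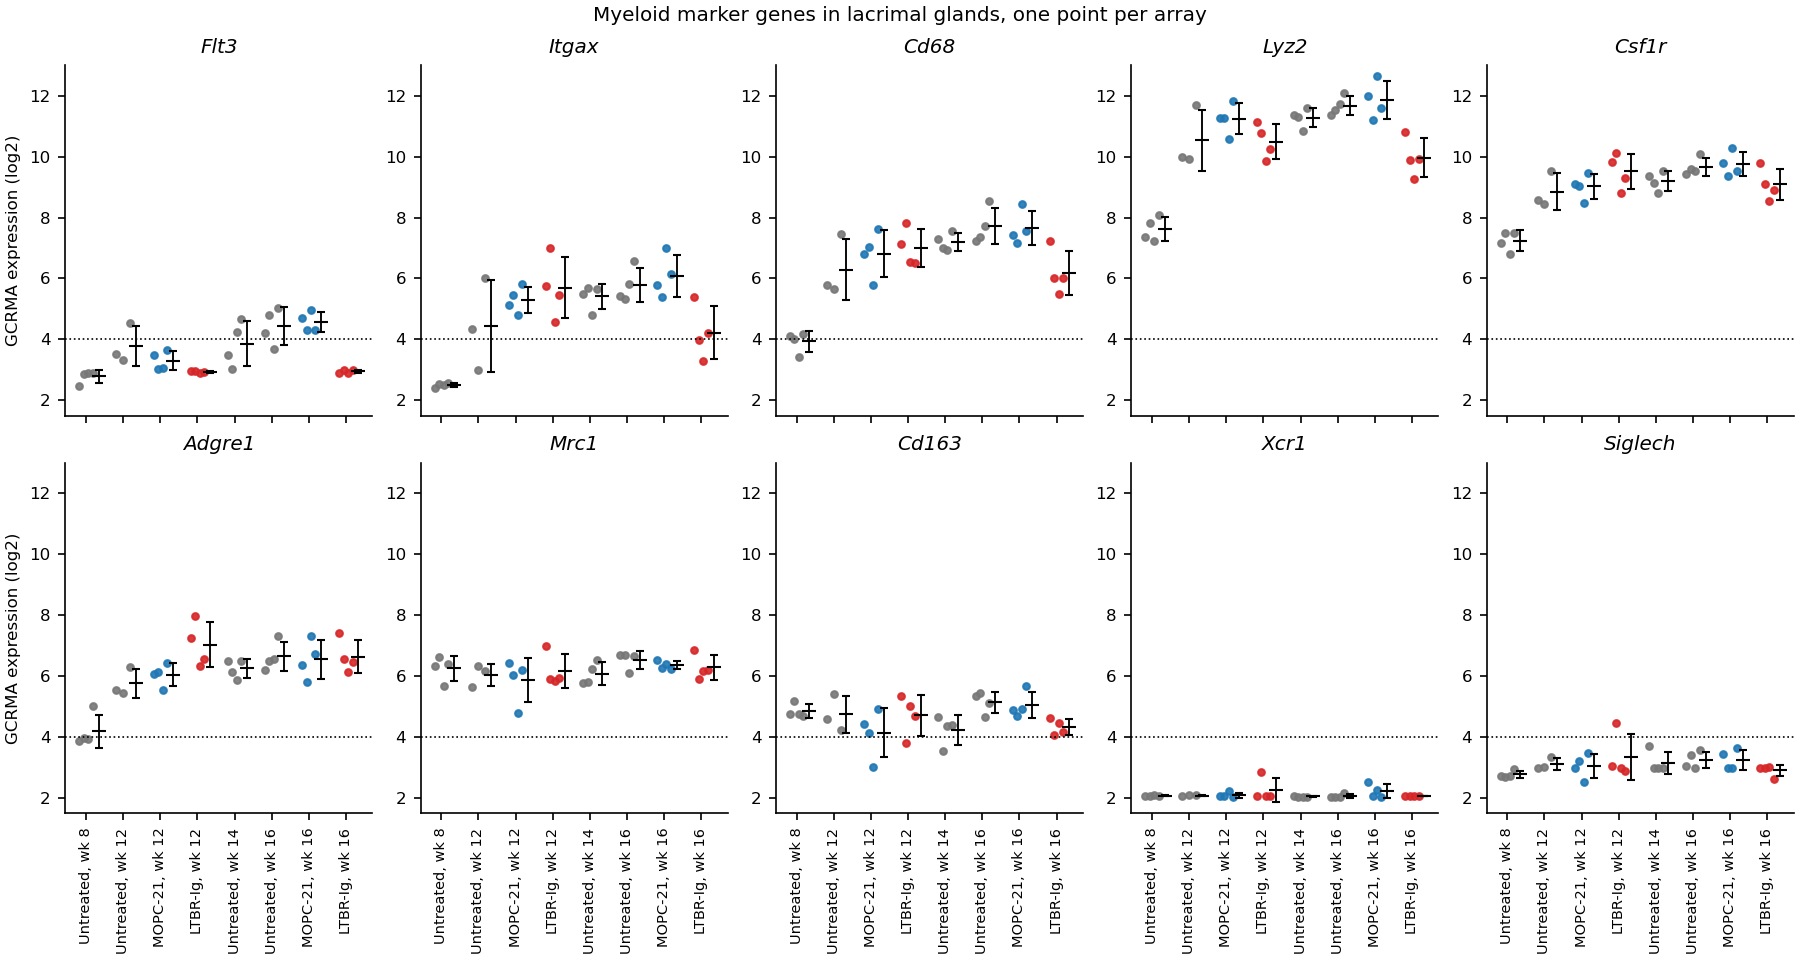
Log2 level of each marker (vertical axis) in the lacrimal arrays by group of treatment and week (horizontal axis), with points for arrays (grey untreated, blue MOPC-21, red LTBR-Ig), black bars for the mean and SD, and a dotted line at the floor of 4. Lyz2, Cd68, Itgax, Csf1r, Adgre1 and Flt3 were lowest in untreated mice of week 8, and Lyz2, Cd68, Itgax and Flt3 averaged lower in LTBR-Ig than in MOPC-21 mice at week 16.

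The comparison of LTBR-Ig with MOPC-21 at week 16 asked what 8 weeks of blocking the receptor's ligands changed. In lacrimal glands 4 of the 8 markers tested were called lower in LTBR-Ig mice: Flt3, Itgax, Cd68 and Lyz2. Over all probe sets tested 5.54% were called lower. Adgre1, Mrc1, Csf1r and Cd163 were not called. The median change of the 8 markers was −1.09 against −0.05 over all probe sets tested.

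Among the dendritic cell markers, Flt3 was at 2.91, 3.0, 2.90 and 2.99 under LTBR-Ig and at 4.69, 4.31, 4.98 and 4.30 under MOPC-21. All 4 LTBR-Ig arrays were under the floor, and all 4 MOPC-21 arrays were above it. Set against the floor, Flt3 was at least 1.48-fold lower, a bound under a 2-fold change. Its call, with an adjusted p of 0.0042, rests on LTBR-Ig values under the floor. It passed the filter only through untreated and MOPC-21 groups. Itgax was at 5.40, 4.0, 3.28 and 4.22 under LTBR-Ig and at 5.80, 5.38, 6.99 and 6.14 under MOPC-21. The groups touched, since replicate 1 of LTBR-Ig lay just above replicate 2 of MOPC-21. The difference was −1.85 ± 0.51 with an interval from −2.89 to −0.81 and an adjusted p of 0.0154. Since 2 of the LTBR-Ig arrays were at or under the floor, the group means were at least 3.19-fold apart with those arrays raised to it. This bound on the means does not allow for the spread between mice, which the interval does.

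Of the phagocyte markers, Lyz2 was at 10.81, 9.88, 9.26 and 9.91 under LTBR-Ig and at 12.00, 11.19, 12.64 and 11.58 under MOPC-21. The groups did not overlap, and the difference was −1.89 ± 0.37, a 3.70-fold lower level with an interval of the log2 difference from −2.65 to −1.13 and an adjusted p of 0.0052. Cd68 was at 7.22, 6.0, 5.50 and 6.03 under LTBR-Ig and at 7.43, 7.18, 8.46 and 7.54 under MOPC-21. Replicate 1 of LTBR-Ig overlapped the MOPC-21 mice, as it did for Itgax. The difference was −1.47 ± 0.42, a 2.76-fold lower level with an adjusted p of 0.0178.

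Adgre1, the F4/80 gene, was at 7.43, 6.57, 6.12 and 6.45 under LTBR-Ig and at 6.35, 5.80, 7.33 and 6.74 under MOPC-21. The groups overlapped almost wholly, and the difference was 0.09 with an interval from −0.64 to 0.82. Over all arrays this leaves out a 2-fold change in either direction. Without the arrays with high Amy1 the difference was 0.44 ± 0.40 (SE), which does not leave out a doubling. Mrc1 differed by −0.07 with an interval from −0.68 to 0.54. Csf1r was at 9.78, 9.11, 8.55 and 8.92 against 9.80, 9.37, 10.27 and 9.54, a difference of −0.66 with an interval from −1.25 to −0.06 and an adjusted p of 0.0953. Its other probe sets differed by −0.56 (adjusted p = 0.114) and −0.85 (adjusted p = 0.0425), neither past a 2-fold change. Cd163 was at 4.61, 4.08, 4.45 and 4.16 under LTBR-Ig and at 4.90, 4.70, 4.91 and 5.68 under MOPC-21. These did not overlap, yet the difference of −0.72 had an adjusted p of 0.118. Without the arrays with high Amy1 Csf1r gave −0.30, Mrc1 0.03 and Cd163 −0.70, none called. Flt3, Lyz2 and Cd163 were thus the 3 markers whose groups did not overlap, where 12.7% of probe sets tested were lower without overlap.

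Against untreated mice of week 16 the same 4 markers were called lower, where 3.77% of probe sets were. Flt3 was at least 1.35-fold lower against the floor, again a bound under a 2-fold change (adjusted p = 0.0122). Lyz2 differed by −1.71 (adjusted p = 0.0151), Cd68 by −1.54 (adjusted p = 0.0273) and Itgax by −1.56 (adjusted p = 0.0489). Adgre1 differed by −0.00 (adjusted p = 0.998). Both comparisons share the LTBR-Ig arrays. Between MOPC-21 and untreated mice of week 16, 0 of 8 markers were called by limma and 0 had an unadjusted p under 0.05, where 0% of probe sets were called. The calls did not hold without the arrays that carried Amy1. At week 16 the LTBR-Ig array of highest Amy1, replicate 3, also held the lowest Lyz2, Cd68 and Itgax of its group. Leaving out the 8 lacrimal arrays with high Amy1, the LTBR-Ig mice of week 16 were reduced to replicates 1 and 2, while all 4 MOPC-21 mice of week 16 stayed. No marker was then called against MOPC-21, with differences of −1.62 for Flt3 (adjusted p = 0.149), −1.51 for Lyz2 (adjusted p = 0.202), −1.38 for Itgax (adjusted p = 0.281) and −1.04 for Cd68 (adjusted p = 0.301). Nor was any called against untreated mice, with differences from −1.56 (Lyz2) to −1.41 (Flt3), whereas the 6 markers that rose with age were all still called. Leaving out single arrays, the count against MOPC-21 lay between 2 and 4, with 2 (Flt3 and Lyz2) without replicate 3 of either group. The count against untreated mice fell to 0 without untreated replicate 4, to 1 without LTBR-Ig replicate 3, and to 2 without LTBR-Ig replicate 2 or 4 or without untreated replicate 3.

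**Figure D2:**
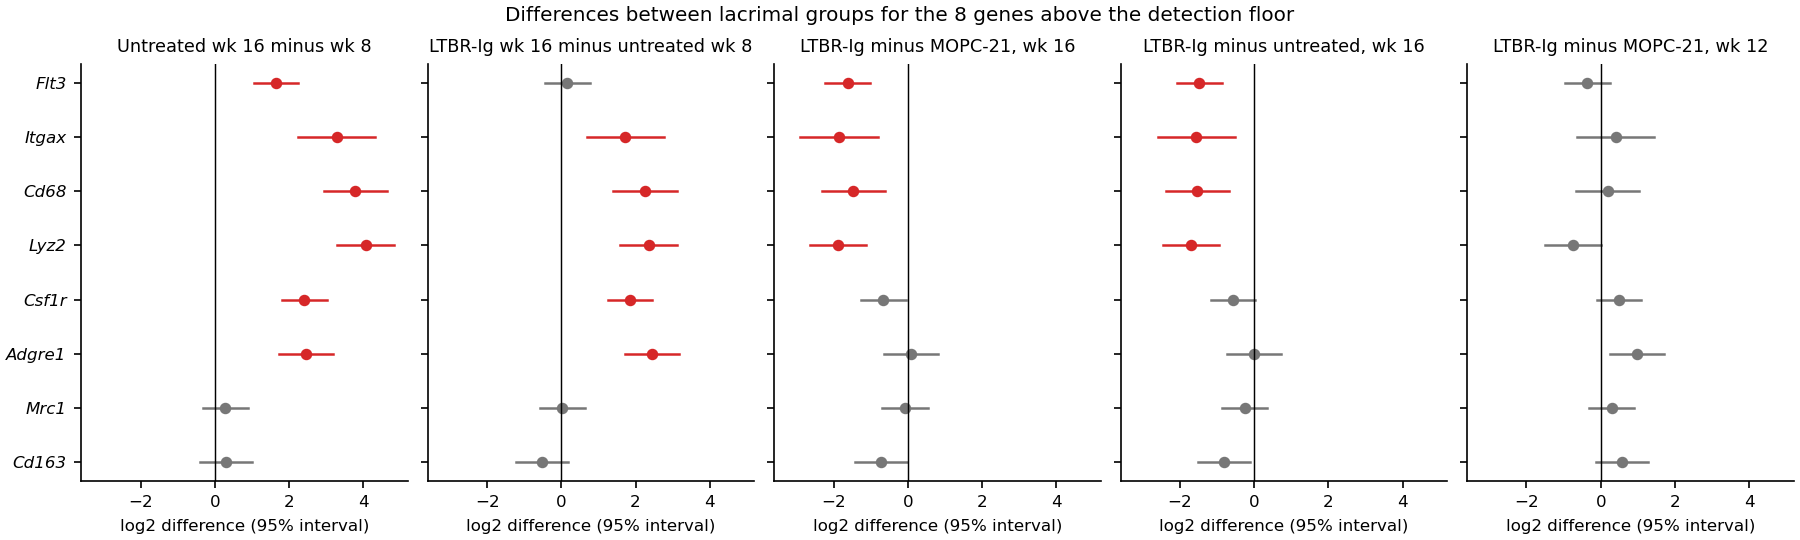
Log2 difference (horizontal axis) of each marker tested (vertical axis) in 5 lacrimal comparisons, with points for the fitted difference, lines for its 95% interval and red for those called. At week 16 Flt3, Itgax, Cd68 and Lyz2 were called lower under LTBR-Ig against MOPC-21, and the intervals of Adgre1 (0.09) and Mrc1 (−0.07) span 0.

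LTBR-Ig mice of week 16 were not at the week 8 level for most markers. Against untreated mice of week 8, 5 of 8 markers were higher, where 6.06% of probe sets were called higher. Itgax among them passed the filter only through groups later than week 8. Lyz2 was up by 2.35 and Csf1r by 1.85. With week 8 arrays under the floor raised to it, Adgre1 was higher by at least 2.39 and Cd68 by at least 2.11 on the log2 scale, and Itgax was at least 1.17-fold higher (adjusted p = 0.0096). The other probe sets of Csf1r gave 1.28, called, and 0.27 (adjusted p = 0.521), not called. Flt3, the dendritic cell growth factor receptor, was under the floor in all 8 arrays, so its levels could not be compared. Adgre1 averaged 6.64 under LTBR-Ig and 6.64 in untreated mice of week 16. Without the arrays with high Amy1 the same 5 markers were called, with Lyz2 up by 2.73 and Csf1r by 2.21.

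After 4 weeks of treatment no marker differed past the test. At week 12, limma called 0 of 8 markers between LTBR-Ig and MOPC-21, where 0.0498% of probe sets were called in either direction, and 1 marker had an unadjusted p under 0.05. That marker was Adgre1, at 7.25, 7.99, 6.33 and 6.56 under LTBR-Ig and 6.08, 6.13, 5.54 and 6.43 under MOPC-21, a difference of 0.98 with an interval from 0.26 to 1.71 and an adjusted p of 0.385. Without the arrays with high Amy1 it was 0.41 (adjusted p = 0.76). Against untreated mice of week 12, 0 of 8 were called, where 0.00498% of probe sets were, and 4 had an unadjusted p under 0.05: Adgre1 (1.27), Itgax (1.25), Csf1r (0.66) and Flt3 (−0.85). Without those arrays Adgre1 gave 0.57, Itgax 0.51 and Csf1r 0.07, and for Flt3, which averaged under the floor in both groups, no size is read. Itgax at week 12 was at 5.76, 7.02, 4.57 and 5.46 under LTBR-Ig against 5.12, 5.45, 4.80 and 5.81 under MOPC-21, and the groups overlapped. Flt3 was at 2.97, 2.95, 2.90 and 2.92 under LTBR-Ig against 3.48, 3.04, 3.05 and 3.64 under MOPC-21, all 8 under the floor.

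The difference between the treatment effects of week 16 and week 12 was tested by itself. No marker was called, as no probe set was (0%), although 6 of 8 had an unadjusted p under 0.05 and adjusted p-values ran from 0.303 to 0.648. Itgax gave −2.26, Cd68 −1.65, Cd163 −1.30, Flt3 −1.26, Lyz2 −1.15 and Csf1r −1.14. Without the arrays with high Amy1 the values were −1.04 for Itgax, −0.74 for Cd68, −1.53 for Cd163, −1.29 for Flt3, −0.32 for Lyz2 and −0.36 for Csf1r, none called. The data therefore do not show, after adjustment, that the effect changed between the weeks.

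Because Adgre1 did not fall with the others, the markers were also set against it within each array. The difference of log2 values between probe sets has no absolute meaning, since probe sets differ in response, but its shifts between groups can be compared. These pairs were chosen after the values were seen and are given with no test. Lyz2 minus Adgre1 lay between 3.14 and 3.46 in the LTBR-Ig mice of week 16 and between 4.84 and 5.66 in the MOPC-21 mice. It was 4.77 to 5.17 in untreated mice of week 16 and 3.06 to 3.86 in those of week 8. At week 8 Adgre1 was above the floor in 1 of 4 arrays, so the last range gives no measured difference. Without the arrays with high Amy1 the range was 3.31 to 3.38 in the 2 LTBR-Ig mice left at week 16.

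The same difference was already apart at week 12, at 2.79 to 3.89 under LTBR-Ig and 5.04 to 5.39 under MOPC-21, although neither gene was called there, and at 3.51 to 3.67 in 2 arrays against 5.04 to 5.39 in 3 without those of high Amy1. Cd68 minus Adgre1 ran from −0.62 to −0.21 under LTBR-Ig and from 0.80 to 1.38 under MOPC-21 at week 16, and from −0.17 to 0.19 against 0.25 to 1.19 at week 12. Csf1r minus Adgre1 ran from 2.35 to 2.54 against 2.80 to 3.56 at week 16. Itgax minus Adgre1 ran from −2.57 to −2.03 against −0.60 to −0.34 at week 16, with Itgax raised to the floor where it lay under it. At week 12 the differences of Lyz2, Cd68, Csf1r and Itgax from Adgre1 lay lower in all 4 LTBR-Ig than all 4 MOPC-21 arrays. Of these LTBR-Ig arrays, 2 had Amy1 above 8. For Itgax the LTBR-Ig arrays lay just below, at −1.76 to −0.97 against −0.96 to −0.62. The untreated mice of week 12 spanned −2.46 to −0.28. The subtracted Adgre1 itself averaged 7.03 under LTBR-Ig and 6.05 under MOPC-21 at week 12, which lowers every difference taken from it. The levels of Itgax (5.70 against 5.30), Csf1r (9.51 against 9.02) and Cd68 also averaged higher under LTBR-Ig. That of Lyz2 averaged lower (10.50 against 11.24). The share of all probe sets whose difference from Adgre1 separated the groups was not computed. These separations are therefore not read as particular to the markers. Without the arrays with high Amy1 the levels differed by −0.34 for Itgax, −0.30 for Cd68, −1.19 for Lyz2, 0.06 for Csf1r and 0.41 for Adgre1.

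**Figure D3:**
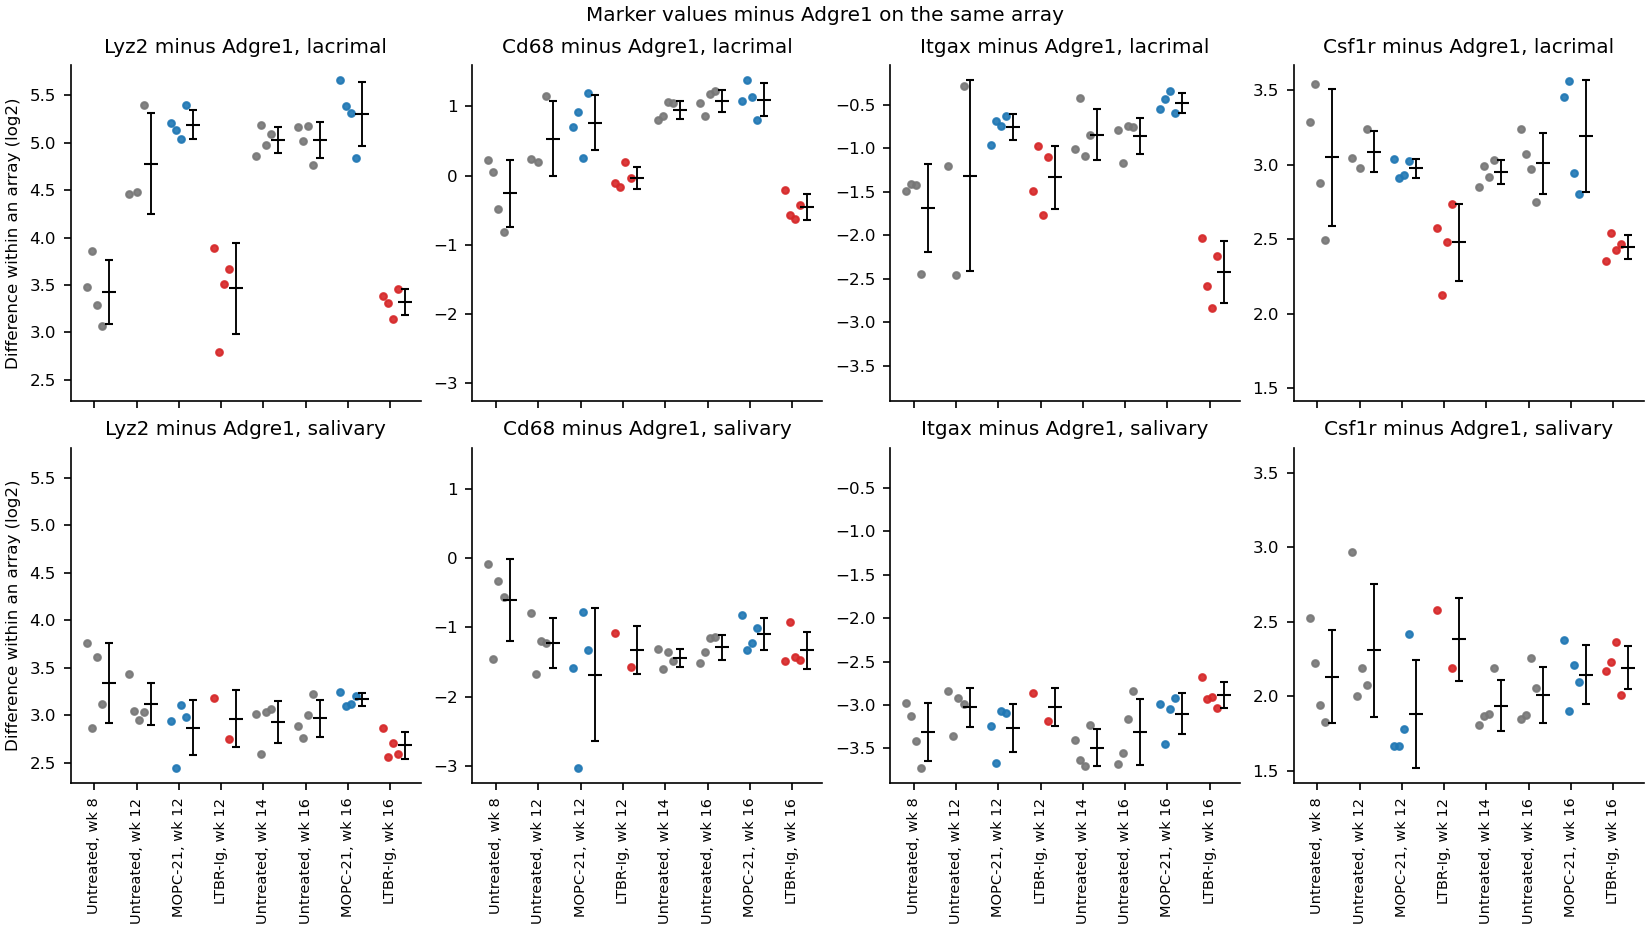
Log2 level of Lyz2, Cd68, Itgax or Csf1r minus that of Adgre1 on the same array (vertical axis) by group (horizontal axis) in lacrimal (top) and salivary glands (bottom), with points for arrays (grey untreated, blue MOPC-21, red LTBR-Ig) and black bars for the mean and SD. For Lyz2 in lacrimal glands the LTBR-Ig mice of week 16 (3.14 to 3.46) and of week 12 (2.79 to 3.89) lie under all MOPC-21 mice of the same week.

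Across the 31 lacrimal arrays Itgax, Cd68, Lyz2, Csf1r and Adgre1 moved together, with Pearson's r between pairs from 0.78 to 0.96. Mrc1 and Cd163 correlated with each other (r = 0.66) but only from −0.06 to 0.28 with those 5, and Flt3 lay between (0.32 to 0.70). Over the 23 arrays without high Amy1 the 5 genes gave 0.86 to 0.97. The arrays share gland and design, so these values are a description. The genes most like each marker, of 10120 compared over the same 31 arrays, were these. Csf1r was most like C1qa (r = 0.99), C1qc and Ly6e, and Adgre1 like Slamf9 (0.97), Ms4a7 and Fcer1g. Itgax was most like Ctsh (0.97), LOC664787 and Arpc2, and Cd68 like Lpxn (0.98), Cxcl13 and Fermt3. Lyz2 was most like Lyz1 (0.9972), S100a4 and Gimap8. Mrc1 was most like the matrix genes Ogn (0.87) and Fn1 (0.83) and F13a1, and Cd163 like F13a1 (0.76), Aldh1a1 and Cd209f. Flt3 was most like Rbm22 (0.87), St8sia6 and Il6st. Lyz1 is a near-identical copy of Lyz2, and the probe sets of these genes may measure the same transcript.

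Other genes of these cell types set the markers in context. Over all probe sets tested in lacrimal glands 5.54% were called lower under LTBR-Ig than MOPC-21 at week 16 and 12.1% higher with age. These shares apply to all lists below, and a count of 1 in so short a list is not read as a result about the list. Of 10 further conventional dendritic cell genes tested, 4 were lower under LTBR-Ig than MOPC-21 at week 16 and the median change was −0.67: the transcription factors Irf4 (−1.98) and Irf8 (−1.27), Wdfy4 (−1.60), needed for cross-presentation, and the lectin Clec10a (−1.20). Of these 10, 7 had risen by week 16 in untreated mice, with Wdfy4 up by 4.78, Irf4 by 3.81, Irf8 by 3.0 and Sirpa by 2.99. Of 5 mature dendritic cell genes tested 4 were lower: Ccr7 (−1.86), which guides dendritic cells to lymphoid tissue, the actin bundler Fscn1 (−1.53), Cd83 (−1.31) and the costimulator Cd86 (−1.28). All 5 had risen with age, Cd83 by 4.54 and Fscn1 by 4.11. Of 5 plasmacytoid dendritic cell genes 1 was lower, Pacsin1 (−1.10), with a median of −0.74, and 4 had risen with age, among them Irf7 by 2.46. Irf4, Irf8, Cd83, Cd86 and Ccr7 are also expressed by lymphocytes. The part of lymphocytes in the values of these lists, Wdfy4 among them, was not tested.

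Of 13 further macrophage genes 1 was lower under LTBR-Ig, the signalling adaptor Tyrobp (−1.19), near the share of 5.54% over all probe sets. The median was −0.70, with 12 of 13 below 0. All 13 had risen with age, with a median of 3.78, Ctss by 4.70, Mpeg1 by 4.65, the complement gene C1qc by 4.09 and Aif1 by 4.03. Against untreated week 8 mice, 12 of the 13 were higher in LTBR-Ig mice of week 16, where 6.06% of probe sets were called higher. Their median was 2.74. At week 12, 0 of 13 were called between LTBR-Ig and MOPC-21 and 12 of 13 were above 0, with a median of 0.55, or 7 of 13 and 0.05 without the arrays with high Amy1. The 6 resident macrophage genes had 0 lower at week 16 (median −0.42), and 1 had risen with age, the transcription factor Maf (1.12). Of 4 monocyte genes 0 were lower (median −0.86) and 3 had risen with age, among them Plac8 by 4.47 and the chemokine receptor Ccr2 by 3.11. Of 5 inflammatory product genes 1 was lower, the interferon-induced chemokine Cxcl9 (−1.22), and 2 had risen with age, Cxcl9 by 6.43 and Cxcl10 by 3.50.

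Among ligands and receptors that act on these cells, Flt3l, the ligand of Flt3, had no probe set of its symbol alone and was not measured here. Csf1, a ligand of Csf1r, differed by −0.37 and Xcl1, the ligand of Xcr1, by −0.37 under LTBR-Ig, neither called. Il34, the other Csf1r ligand, was not above the filter. Of the 7 genes tested 2 were lower: Csf2rb (−1.70), the shared receptor chain for GM-CSF, and Itgb2 (−1.43), the partner chain of CD11c. With age 5 of 7 had risen, Itgb2 by 5.31, Csf2rb by 3.97, Csf2ra by 2.37 and Csf1 by 1.18, and Xcl1 differed by 0.10.

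Genes of other leukocytes moved with the markers. Under LTBR-Ig 6 of 7 pan-leukocyte genes (median −1.61), 6 of 6 B-cell genes (median −2.14), 5 of 6 T-cell genes (median −1.53) and 4 of 4 natural killer cell genes (median −1.47) were lower at week 16. Of the same lists 6 of 7, 6 of 6, 6 of 6 and 4 of 4 had risen with age. Ptprc, the gene of CD45 on all leukocytes, ranged from 4.45 to 12.58 over the lacrimal arrays. No fibroblast gene of 6 was called under LTBR-Ig (median −0.03), and 1 of 3 endothelial genes was lower, Pecam1 (−1.37), which leukocytes also carry. With age Col1a1 fell by 2.64, 1 of 3 fibroblast genes of 6 called lower, and 1 endothelial gene was lower and 1 higher. Over all probe sets tested 4.49% were called lower with age. Of the 7 granulocyte and mast cell genes measured, 0 passed the filter. Of the gland's own products, Aqp5 (0.50) and Lcn11 (0.28) were not called under LTBR-Ig, nor were the salivary products Amy1 (4.85, adjusted p = 0.20) and Bpifa2 (5.81, adjusted p = 0.15), which varied widely within the group. Amy1 was above 8 in LTBR-Ig replicates 3 and 4 of week 16 and in no MOPC-21 array of that week. Aqp5 had fallen with age by 1.06. Without the arrays with high Amy1, 0 genes of any list were called by limma under LTBR-Ig at week 16, where 0.0605% of probe sets were called lower, and the medians were −0.23 for the 13 macrophage genes, −0.42 for the 10 conventional and −0.79 for the 5 mature dendritic cell genes and −1.42 for the 6 B-cell genes. All 13 macrophage genes were still called higher with age. The part of other leukocytes in the markers' values was not tested.

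**Figure D4:**
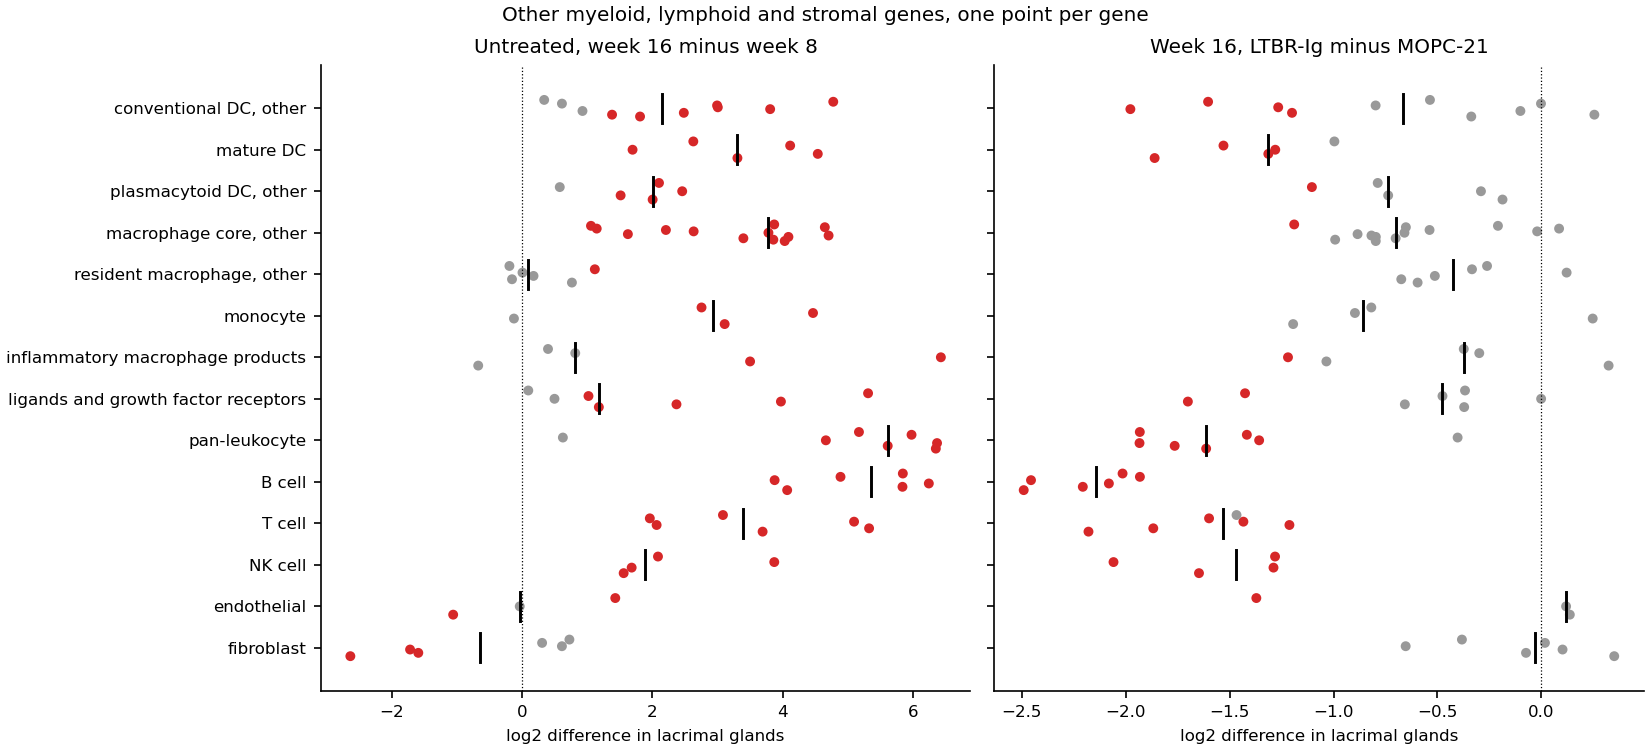
Log2 difference (horizontal axis) of the genes of each list (vertical axis) in lacrimal glands, with age in untreated mice on the left and under LTBR-Ig against MOPC-21 on the right on another scale, with a point per gene (red where called) and a black tick at the list's median. The 13 macrophage genes had a median of 3.78 with age and −0.70 under LTBR-Ig, and the 6 resident macrophage genes medians of 0.09 and −0.42.

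In salivary glands the 6 markers tested stayed within narrow ranges: Cd68 from 3.42 to 5.98, Lyz2 from 8.06 to 9.92, Csf1r from 7.39 to 8.25, Adgre1 from 5.29 to 6.45, Mrc1 from 5.56 to 7.32 and Cd163 from 3.75 to 5.31 over 30 arrays. For LTBR-Ig against MOPC-21, limma called 0 of 6 at week 16, where 0.0357% of probe sets were called in either direction, and 1 had an unadjusted p under 0.05. This was Lyz2, at 8.34, 8.06, 8.18 and 8.23 under LTBR-Ig and 8.69, 9.02, 8.71 and 9.11 under MOPC-21. The groups did not overlap, and the difference was −0.68 with an interval from −1.04 to −0.32 and an adjusted p of 0.259. Lyz2 minus Adgre1 did not overlap there either, at 2.56 to 2.87 against 3.10 to 3.25. The 13 other macrophage genes had a median of −0.35, with 0 called, and no gene of any list was called. No B-cell or T-cell gene passed the filter there, so none could be called. Among pan-leukocyte genes Cd52 (−1.06), Coro1a (−1.04), Cd53 (−0.92), Ptprc (−0.70) and Laptm5 (−0.42) were lower without overlap, and Lcp1 (−0.06) overlapped. Over all probe sets tested 4.81% were lower without overlap. The monocyte gene Plac8 differed by −1.28 (adjusted p = 0.0698 by limma).

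At week 12, with 2 LTBR-Ig arrays, 0 of 6 markers were called by limma, where 0.0306% of probe sets were, and 1 had an unadjusted p under 0.05, Mrc1 (−0.57, adjusted p = 0.269). Between weeks 8 and 16 of untreated mice 0 of 6 were called, where 7.14% of probe sets were called in either direction. Of these, 3 had an adjusted p under 0.05 with a change of less than 2-fold, all downward: Mrc1 (−0.63, adjusted p = 0.0063), Cd68 (−0.82, adjusted p = 0.0157) and Lyz2 (−0.51, adjusted p = 0.027). Without the week 8 array that carried Lcn11 these were −0.64, −0.80 and −0.53, and 0 of 6 were called. Without replicate 2 of week 8, Cd68 differed by −1.13 and was the 1 marker called.

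**Figure D5:**
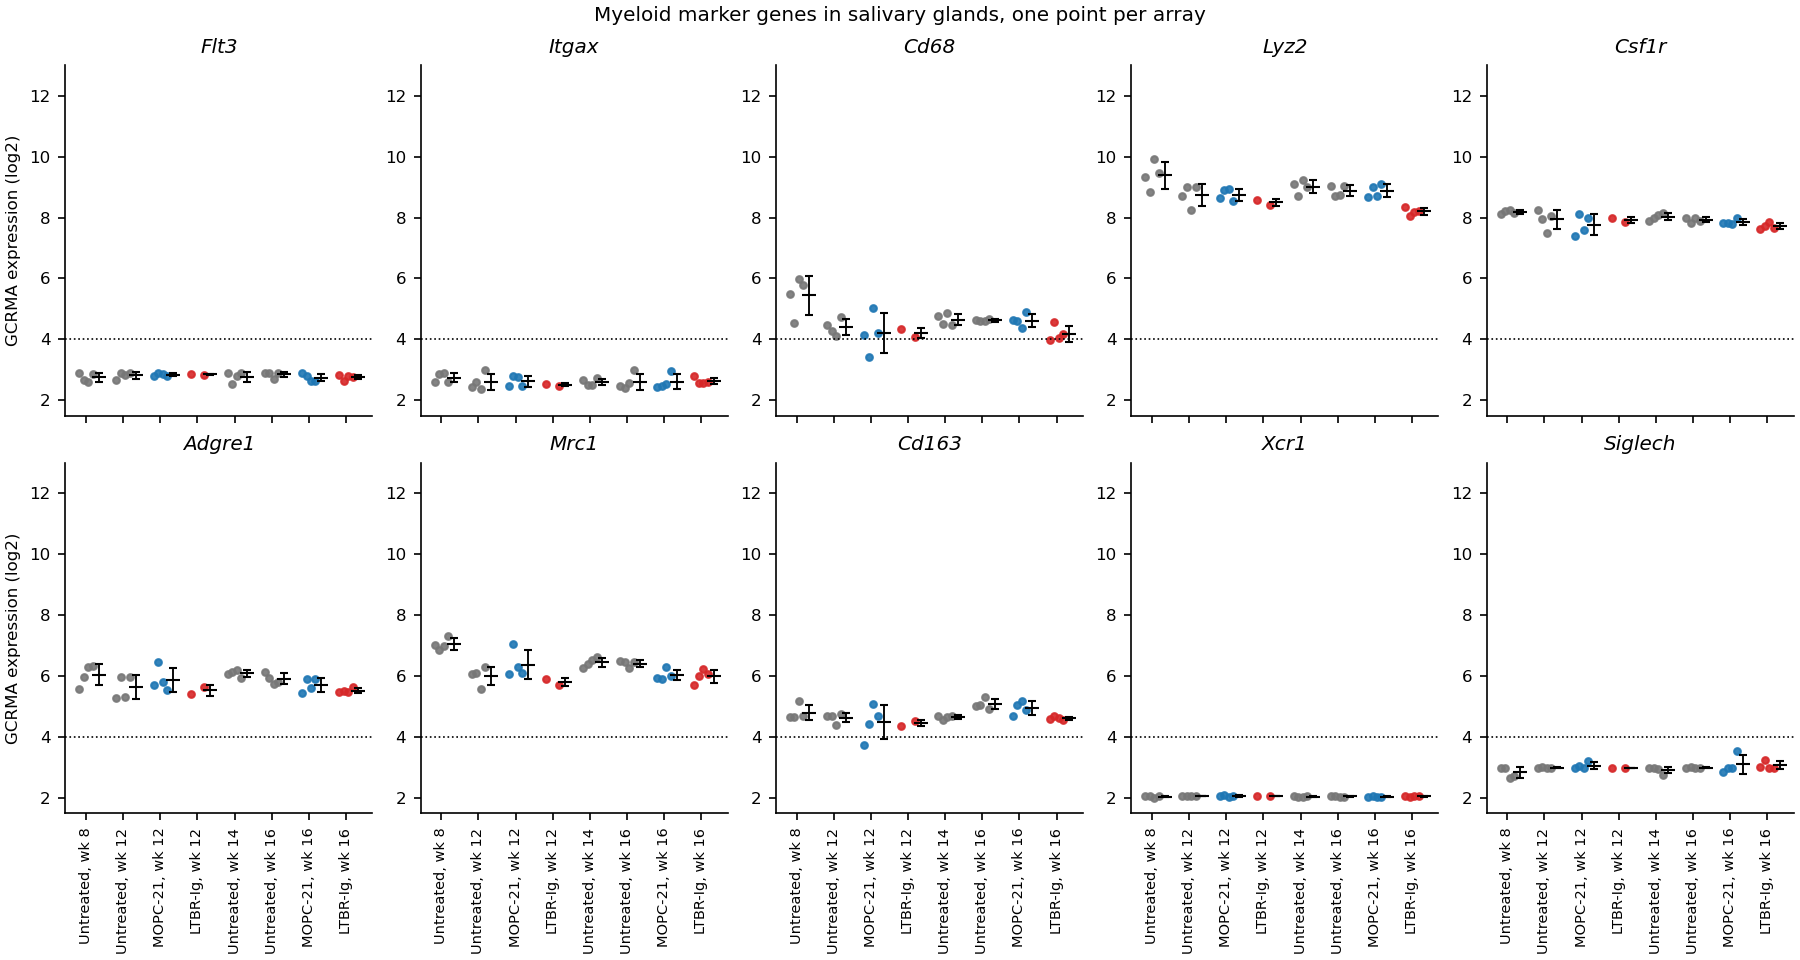
Log2 level of each marker (vertical axis) in the salivary arrays by group (horizontal axis), with points for arrays (grey untreated, blue MOPC-21, red LTBR-Ig), black bars for the mean and SD, and a dotted line at the floor of 4. Flt3, Itgax, Xcr1 and Siglech lie under the floor in all 30 arrays, and Lyz2 spans 8.06 to 9.92.

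The tissues differed in opposite ways at the start and at the end. At week 8, 3 markers were lower in lacrimal than in salivary glands of untreated mice, where 11.6% of probe sets were called lower. Lyz2 differed by −1.77, and with lacrimal arrays under the floor raised to it Adgre1 was at least 3.48-fold and Cd68 at least 2.59-fold lower. Without the salivary array that carried Lcn11 all 3 remained called. Over all arrays Csf1r differed by −0.94 (adjusted p = 5.5e-04), under a 2-fold change. Its other probe sets gave −1.14 (adjusted p = 1.4e-05), called, and −0.50 (adjusted p = 0.0805), not called. At week 16, 5 markers were higher in lacrimal glands, where 11.9% of probe sets were called higher: Cd68 by 3.10, Lyz2 by 2.79, Csf1r by 1.73, Itgax by at least 3.45-fold and Flt3 by at least 1.35-fold against the floor. Itgax and Flt3 passed the filter only through lacrimal groups. The other probe sets of Csf1r differed by 0.69 and 0.67, and Adgre1 was higher by 0.73 (adjusted p = 0.0293), all under a 2-fold change. Without the Amy1 arrays Adgre1 was higher by 1.02 (adjusted p = 0.0073) and was called as well.

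The change from week 8 to 16 differed between the tissues for 6 markers, where 12.6% of probe sets were called higher in this term: Cd68 (4.61), Lyz2 (4.57), Itgax (3.42), Csf1r (2.67), Adgre1 (2.59) and Flt3 (1.55). These are fitted values, of which those of Cd68, Adgre1, Itgax and Flt3 rest on lacrimal week 8 means at, under or close to the floor. The other probe sets of Csf1r gave 1.83 and 1.17, both called. Mrc1 gave 0.91 (adjusted p = 0.0343), under a 2-fold change. The LTBR-Ig effect at week 16 differed between the tissues for 2 markers, where 2.61% of probe sets were called lower: Flt3 (−1.64, adjusted p = 0.005) and Itgax (−1.88, adjusted p = 0.039). Both were under the floor in all salivary arrays, so that no fall could have been measured there. Lyz2 gave −1.21 (adjusted p = 0.0786) and Cd68 −1.04 (adjusted p = 0.207), and Adgre1 0.28 (adjusted p = 0.727). Without the Amy1 arrays Flt3 was still called (−1.64, adjusted p = 0.0268) and Itgax was not (−1.40, adjusted p = 0.309).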

How the data were processed

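The authors hybridised RNA of each mouse to an Affymetrix mouse array and normalised all arrays as one set by GCRMA in R, and the deposited table holds the resulting log2 values for 45101 probe sets in 61 arrays. GCRMA corrects background by probe base composition and pulls low signals toward a common floor, so differences near a log2 value of 4 are compressed. All columns were mapped to a sample from the labels, and 0 were left unmapped. The number of arrays limits the precision, since arrays carry no counts.

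Probe sets were named from the platform annotation: 34958 have 1 gene symbol, 932 several and 9211 none. Where several probe sets carried a gene's symbol alone, the one of highest average level stood for the gene. A probe set entered the tests if 2 or more arrays of any group exceeded the floor of 4 (20077 lacrimal, 19617 salivary, 21626 over both tissues) with limma 3.58.1 in R 4.3.3, with 1 mean per group, an intensity trend and Benjamini-Hochberg adjustment over all probe sets tested. A call needs a fold of at least 2 and an adjusted p under 0.05, and intervals are 95% intervals of the fit. The steps were checked on simulated data with known changes.

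The 10 markers and the 17 lists of 134 other genes, of which 13 had no single-symbol probe set, were chosen with earlier results of these data known. The text names all markers, the 3 genes most correlated with each marker tested in lacrimal glands, up to 4 called genes with the largest changes in each list, and the ligands of the markers. Alternatives changed the filter, the call rule, the arrays in the fit, the trend, the normalisation, the probe set of a gene, the control group, the replicate block and single arrays. The study's own calling rule, a posterior probability from limma, was one of them. No promoter window was examined for Csf1r and Adgre1.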

Additional observations from a re-analysis of the deposited data

Results flagged for a closer look

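Of 91 combinations of marker and group of 4 arrays that lay above the floor, 9 held an array far from the other 3, where chance gives about 1 in 20. In lacrimal glands these were Adgre1 in untreated week 8 replicate 4 (5.0), Mrc1 in LTBR-Ig week 12 replicate 1 (6.98), Mrc1 in untreated week 16 replicate 3 (6.10) and Cd163 in untreated week 8 replicate 2 (5.2). In salivary glands they were Csf1r in MOPC-21 week 16 replicate 4 (8.0), Adgre1 in LTBR-Ig week 16 replicate 4 (5.64), Mrc1 in untreated week 16 replicate 3 (6.25), Cd163 in untreated week 14 replicate 2 (4.55) and Cd163 in untreated week 8 replicate 3 (5.18). No group of Lyz2, Cd68, Itgax or Flt3 that could be examined held such a value.

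The effect of LTBR-Ig at week 16 differed between lacrimal and salivary glands for Flt3 (−1.64) and Itgax (−1.88) by limma's interaction term. Both genes were under the floor in all 30 salivary arrays, so that no fall could be measured there. The change from week 8 to week 16 in untreated mice differed between the glands for Flt3 (1.55), Itgax (3.42), Cd68 (4.61), Lyz2 (4.57), Csf1r (2.67) and Adgre1 (2.59), where Flt3 and Itgax again had no measured salivary level and Flt3, Itgax, Cd68 and Adgre1 lay at or near the floor in lacrimal glands at week 8.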

How the results depend on the processing

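Over the comparisons and alternatives run, the number of markers called stayed within 1.5 times its first value in 293 cases and moved further in 33, and of the single changes 2379 kept their direction and side of the threshold, 74 lost the call, 15 gained it and 0 reversed. The counts that moved were these. For LTBR-Ig against MOPC-21 in lacrimal glands at week 16, 4 became 2 with only the arrays of these groups in the fit, 1 by the posterior probability and 0 without the arrays with high Amy1, and lay between 2 and 4 when single arrays were left out. Against untreated mice, 4 became 0 by the posterior probability and 0 without those arrays, and lay between 0 and 4 without single arrays. At week 12 against week 8, 6 became 1 by the posterior probability. In salivary glands between weeks 8 and 16, 0 became 3 with no minimum fold and lay between 0 and 1 without single arrays. Between the glands at week 8, 3 became 5 with no minimum fold. For the difference of the LTBR-Ig effect between the glands, 2 became 1 with no filter, with the filter at 6, with only the arrays compared, by the posterior probability, after quantile normalisation and without the Amy1 arrays, and lay between 1 and 3 without single arrays. The cause of these changes was not tested, beyond the fewer arrays that some settings leave.

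Same-numbered arrays of the groups compared did not deviate together throughout (r from −0.51 to 0.20 for LTBR-Ig and MOPC-21 at lacrimal week 16), so the numbers were not taken as pairs. With the replicate block 4 markers were called in that comparison, and no count changed except at week 12 against week 8, 5 in place of 6. Each group has at most 4 mice, and levels near the floor, as for Flt3, are compressed.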
